A study of Mus musculus with 6 samples.

Results

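*Sox4* and 9 genes of transforming growth factor beta (TGF-beta) signalling were examined in liver F4/80-positive cells, 10 genes of the 49315 listed in the count tables. *Sox4* was selected on its measured counts, since its higher level in *Lpcat3* KOMac cells had been seen in these same libraries, so its level is described here without a test. The other genes were taken for their role in the pathway, whatever their values: the ligand *Tgfb1*, the receptors *Tgfbr1* and *Tgfbr2*, the Smad genes *Smad2*, *Smad3*, *Smad4* and *Smad7*, and the corepressors *Ski* and *Skil*. The libraries came from 3 WT and 3 *Lpcat3* KOMac mice, with 1 poly-A RNA library per mouse. In *Lpcat3* KOMac mice, floxed *Lpcat3* (*Lpcat3* fl/fl) is deleted by a Cre recombinase expressed from the myeloid gene *Lyz2* (*LysM* Cre/+). The WT mice were littermates that also carried both floxed *Lpcat3* alleles but had no Cre (*LysM* +/+). All mice were C57BL/6N, began the diet as young adults and were fed a high-fat diet (60% fat) for 16 weeks. They received no other treatment, and mice of both sexes were used in the study. The cells were separated from collagenase-digested livers by magnetic beads against F4/80, a macrophage surface protein. Kupffer cells, which are macrophages that reside in the liver, make up much of such a preparation. Because *LysM*-driven Cre acts in myeloid cells and deletes incompletely, these mice are a model of partial loss of *Lpcat3*.

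TGF-beta is a secreted cytokine that is stored outside the cell in a latent form and must be activated before it can bind. It assembles a type II and a type I receptor kinase, the type I receptor phosphorylates Smad2 and Smad3, and these enter the nucleus with Smad4 to switch genes on or off. Smad7 is itself induced by the pathway and shuts the receptors down, while Ski and Skil hold Smad complexes in a repressive state. In the liver, TGF-beta is best known for driving stellate cells to make collagen, and macrophages are among its sources. Sox4 is a transcription factor of the SoxC group whose transcript is induced by TGF-beta in many cell types.

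Total counts lay between 44954224 and 71392812 per library, and levels are given as TMM-CPM, counts scaled to CPM after TMM adjustment for library size and composition. The targeted gene *Lpcat3* was at 85, 66.2 and 61.2 TMM-CPM in the WT mice 1 to 3 and at 19.5, 33.3 and 19.4 in *Lpcat3* KOMac mice 1 to 3, without overlap (log2 fold change -1.56, adjusted p = 1 in edgeR). The Kupffer cell markers of the labelled cell type were abundant in every library, with a sum over 8 markers between 21790 and 38450 TMM-CPM. A sum over 5 hepatocyte transcripts reached 20180 TMM-CPM in WT mouse 1 and 12820 in *Lpcat3* KOMac mouse 2, against 1755 to 4604 in the other libraries. These libraries therefore stand apart, and results that rest on them are also given without both. Across all 16134 genes tested with edgeR's quasi-likelihood test, 0% passed a Benjamini-Hochberg adjusted p-value of 0.05, 2.64% lay under an unadjusted 0.05 (1.07% higher and 1.57% lower in *Lpcat3* KOMac cells), 40.1% had a log2 fold change above 0, and 7.49% had groups that did not overlap (2.29% higher and 5.2% lower in *Lpcat3* KOMac cells). With DESeq2, 12 genes passed the same adjusted threshold, *Lpcat3* among them, and with limma-voom 0 did. The 12 are 0.0868% of the 13823 genes to which DESeq2 gave an adjusted p-value. The number of genes under an unadjusted 0.05 rested on single mice, at 426 with all of them, 2028 without WT mouse 1 and 179 without *Lpcat3* KOMac mouse 1.

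*Sox4* (ENSMUSG00000076431) is a gene with a single exon on the minus strand of chromosome 13, chr13:28948919-28953713 in GRCm38. It was at 1.34, 1.16 and 1.53 TMM-CPM in the WT mice 1 to 3 and at 3, 2.56 and 2.76 TMM-CPM in *Lpcat3* KOMac mice 1 to 3. All *Lpcat3* KOMac values lay above all WT values, and the mice of each genotype were close to each other. The means were 1.34 ± 0.187 TMM-CPM (SD, n = 3) in WT and 2.77 ± 0.216 TMM-CPM (SD, n = 3) in *Lpcat3* KOMac cells, so that *Sox4* reached 207% of WT. On the log2 scale the fold change was 1.05 (standard error 0.22), a description of the value for which the gene was picked. These levels rest on 87, 58 and 70 counts in WT mice 1 to 3 and on 174, 133 and 130 counts in *Lpcat3* KOMac mice 1 to 3. The exact 95% Poisson intervals, which cover counting error only, ended at 1.93 TMM-CPM at most in WT libraries and began at 2.15 TMM-CPM or higher in *Lpcat3* KOMac libraries. *Sox4* was picked for this difference, so the separation of these intervals is a description and not a test. The log2 fold change of *Sox4* ranged from 0.95 to 1.15 over the fits that omitted a single mouse, and it was 1.10 without both libraries rich in hepatocyte transcripts.

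**Figure D1:**
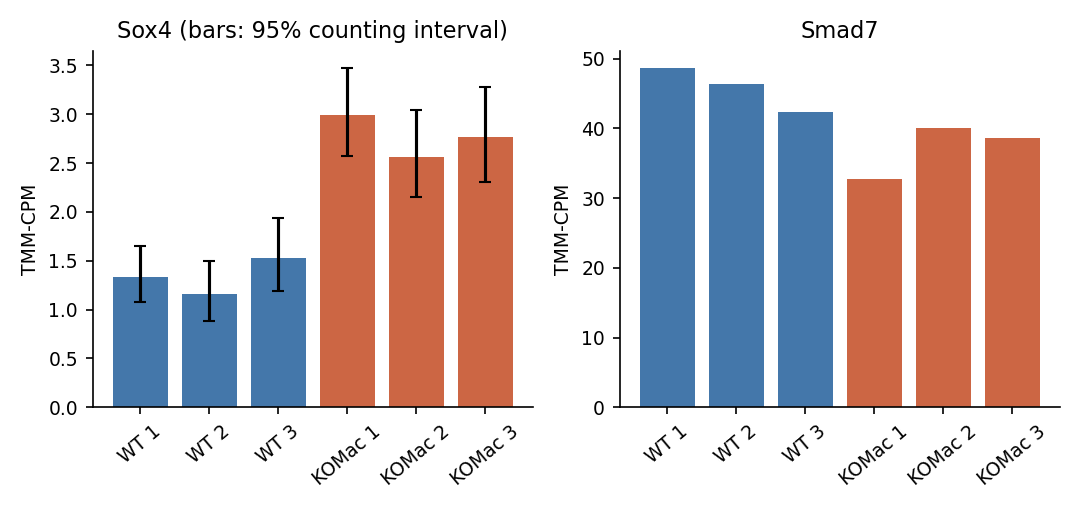
TMM-CPM of *Sox4* (left) and *Smad7* (right) in each mouse, WT in blue and *Lpcat3* KOMac in orange; each bar is 1 library, and the error bars on *Sox4* are exact 95% Poisson counting intervals. *Sox4* lies between 1.16 and 1.53 in WT and between 2.56 and 3 in *Lpcat3* KOMac mice, and *Smad7* between 42.3 and 48.7 in WT and between 32.8 and 40.1 in *Lpcat3* KOMac mice.

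The 250 bases that precede the *Sox4* start site in RefSeq (GRCm38.p6, chr13:28953700-28953949, minus strand) are shown because *Sox4* was the gene of this group whose level differed most, and Smad complexes bind DNA at short CAGAC boxes. Capitals mark the match to CAGAC, here on the opposite strand as GTCTG:
Sox4: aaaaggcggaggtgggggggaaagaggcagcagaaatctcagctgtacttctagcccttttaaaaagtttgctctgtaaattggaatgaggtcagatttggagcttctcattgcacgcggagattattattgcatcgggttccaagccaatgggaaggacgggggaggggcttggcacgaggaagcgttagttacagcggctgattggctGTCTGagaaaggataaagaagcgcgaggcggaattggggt
The window held 1 match to CAGAC on either strand, at -40 from the start site, where 42.2% of 32851 promoter windows of the same length held at least 1. It held no match to the palindrome GTCTAGAC, found in 0.167% of windows, or to GGCGCC, found in 9.59%. Among the 6 of 10 genes that had a window in the RefSeq table, *Tgfbr2* also had a CAGAC match at -160, *Tgfbr1* had 1 only at a downstream start site, and *Tgfbr1* and *Ski* each had a GGCGCC match. *Tgfb1* and *Smad3* had no match to any of these letters. These matches describe letters in the windows and not sites that are bound.

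The *Sox4* exon overlaps an exon of *Gm26735*, a long noncoding RNA gene on the other strand, over 2616 of its 4795 bases. The overlap lies in the 3′ untranslated region of *Sox4* and does not reach its coding sequence. *Gm26735* had 0 counts in every library. Whether strand was used in the counting is not given in the sources used here, so reads from the shared bases may have been left out of the *Sox4* count or assigned to it. Per kilobase of all exonic bases, *Sox4* was at 0.28 ± 0.0389 TMM-CPM (SD, n = 3) in WT and 0.579 ± 0.045 (SD, n = 3) in *Lpcat3* KOMac cells. The same counts divided by the 2179 bases that are not shared gave 0.616 ± 0.0856 and 1.27 ± 0.099 TMM-CPM per kilobase (SD, n = 3 each). These values hold only if no counted read came from the shared bases, and are otherwise too high. On either scale *Sox4* was the lowest of the 10 genes in every library.

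Of the 9 genes chosen for their role, 0 passed the adjusted threshold of 0.05 in edgeR's quasi-likelihood test, as for all genes (0%). Under an unadjusted 0.05 there was 1 gene, *Smad7*, against 2.64% of all genes (1.57% lower in *Lpcat3* KOMac cells). *Smad7* was also the only one of the 9 whose groups did not overlap, which is 11.1% of the 9 genes, against 7.49% of all genes tested (5.2% lower). Their median log2 fold change was -0.03 and that of all genes tested -0.04. The median size of the change, without its sign, was 0.07 on the log2 scale for the 9 genes and 0.12 for all genes tested. DESeq2 and limma-voom called 0 of the 9 genes as well.

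**Figure D2:**
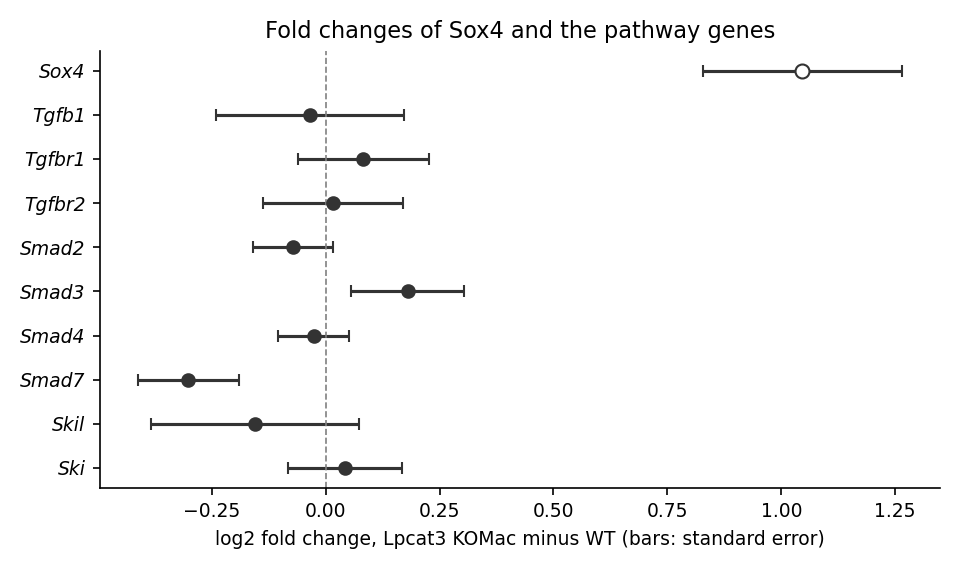
Log2 fold change (*Lpcat3* KOMac minus WT) of *Sox4* and the 9 pathway genes from edgeR, with bars for the standard error; the open circle marks *Sox4*, which was picked for this value. *Sox4* stands at 1.05, *Smad7* at -0.30, and the other genes lie between -0.16 and 0.18.

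*Tgfb1* (ENSMUSG00000002603, chr7:25687002-25705077), the TGF-beta ligand of most immune cells, was at 206, 314 and 284 TMM-CPM in the WT mice 1 to 3 and at 277, 210 and 298 TMM-CPM in *Lpcat3* KOMac mice 1 to 3. The groups overlapped over nearly their whole range, with means of 268 ± 55.7 and 262 ± 46.1 TMM-CPM (SD, n = 3 each). The log2 fold change was -0.03 with a 95% interval from -0.54 to 0.47 (adjusted p = 1, edgeR). Its sign changed when total counts alone were used for scaling.

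*Tgfbr1* (ENSMUSG00000007613, chr4:47353222-47414931) encodes the type I receptor kinase. It was at 195, 249 and 257 TMM-CPM in the WT mice 1 to 3 and at 251, 219 and 272 TMM-CPM in *Lpcat3* KOMac mice 1 to 3, which overlap. *Tgfbr2* (ENSMUSG00000032440, chr9:116084293-116175360) encodes the type II receptor that binds the ligand. It was at 250, 354 and 267 TMM-CPM in the WT mice 1 to 3 and at 286, 277 and 318 TMM-CPM in *Lpcat3* KOMac mice 1 to 3, which lay within the WT range. The log2 fold changes were 0.08 (95% interval -0.27 to 0.44) for *Tgfbr1* and 0.02 (-0.36 to 0.40) for *Tgfbr2*, each with an adjusted p = 1 in edgeR.

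*Smad2* and *Smad3*, the Smads phosphorylated by the TGF-beta receptor, differed far more from each other than between genotypes. *Smad2* (chromosome 18) was at 51, 51.4 and 47.6 TMM-CPM in the WT mice 1 to 3 and at 50.9, 43.9 and 48 TMM-CPM in *Lpcat3* KOMac mice 1 to 3. *Smad3* (ENSMUSG00000032402, chr9:63646767-63757994) was at 13.9, 16 and 16.9 TMM-CPM in WT and at 19.6, 17 and 16.5 TMM-CPM in *Lpcat3* KOMac mice, where mouse 3 fell inside the WT range. Per kilobase, *Smad2* was at 14.1 ± 0.59 TMM-CPM and *Smad3* at 2.81 ± 0.27 TMM-CPM in WT cells (SD, n = 3 each), without overlap in any pair of libraries. The log2 fold changes were -0.07 (95% interval -0.29 to 0.15) for *Smad2* and 0.18 (-0.13 to 0.49) for *Smad3*, each with an adjusted p = 1 in edgeR.

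*Smad4* (chromosome 18), the partner shared with the bone morphogenetic protein branch, was the steadiest of the 10 genes. It was at 60.3, 58.7 and 56.5 TMM-CPM in the WT mice 1 to 3 and at 59.5, 59.1 and 53.8 TMM-CPM in *Lpcat3* KOMac mice 1 to 3. Its highest library was 1.12 times its lowest, and its log2 fold change was -0.03 (95% interval -0.22 to 0.17, adjusted p = 1, edgeR).

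*Smad7* (chromosome 18), the inhibitory Smad, was at 48.7, 46.3 and 42.3 TMM-CPM in the WT mice 1 to 3 and at 32.8, 40.1 and 38.6 TMM-CPM in *Lpcat3* KOMac mice 1 to 3. Every *Lpcat3* KOMac value lay below every WT value, with a gap of 42.3 against 40.1 TMM-CPM between the nearest mice. The means were 45.8 ± 3.2 and 37.2 ± 3.87 TMM-CPM (SD, n = 3 each), so that *Smad7* was at 81.2% of WT. Its log2 fold change was -0.30 (95% interval -0.57 to -0.03, unadjusted p = 0.0353 and adjusted p = 1 over all genes in edgeR), so the difference did not pass the correction. It ranged from -0.35 without WT mouse 3 to -0.18 without *Lpcat3* KOMac mouse 1 and was -0.31 without both libraries rich in hepatocyte transcripts. Its unadjusted p-value was not under 0.05 with DESeq2, total counts alone, the endothelial covariate or the replicate block, nor without WT mouse 2 or any single *Lpcat3* KOMac mouse. Beside it, all 8 Kupffer cell markers had a negative log2 fold change, with a median of -0.29, where 40.1% of all genes tested were above 0, and none passed the adjusted threshold in edgeR. The groups did not overlap for 3 of them, *Clec4f*, *C1qa* and *Folr2*, against 5.2% of all genes that were lower without overlap. The summed markers overlapped, at 28500 to 38450 TMM-CPM in WT and 21790 to 30590 in *Lpcat3* KOMac libraries. Their part in the *Smad7* value was not tested, and in such bulk libraries fewer cells of a type and less RNA per cell cannot be told apart.

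*Skil* (ENSMUSG00000027660, chr3:31095058-31122577), a corepressor that is also a TGF-beta target, was at 170, 283 and 275 TMM-CPM in the WT mice 1 to 3 and at 213, 188 and 253 TMM-CPM in *Lpcat3* KOMac mice 1 to 3. WT mouse 1 was the lowest of all and the other WT mice the highest, so that the WT group enclosed the *Lpcat3* KOMac group. Its log2 fold change was -0.16 (95% interval -0.72 to 0.41, adjusted p = 1, edgeR), the widest interval among the 9 genes. It was -0.36 without WT mouse 1 and -0.03 without WT mouse 2. *Ski* (ENSMUSG00000029050, chr4:155154075-155222592), its relative, was at 85, 106 and 103 TMM-CPM in WT and at 100, 91 and 112 TMM-CPM in *Lpcat3* KOMac mice, with a log2 fold change of 0.04 (95% interval -0.27 to 0.35, adjusted p = 1, edgeR).

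For 4 of the 10 genes, *Tgfb1*, *Tgfbr1*, *Ski* and *Skil*, the lowest 2 libraries were WT mouse 1 and *Lpcat3* KOMac mouse 2, those with the most hepatocyte transcripts. How many of all genes tested share this order was not counted, so it is not called particular to these genes. *Tgfbr2* and *Smad3* were also lowest in WT mouse 1, *Smad2* was lowest in *Lpcat3* KOMac mouse 2, and *Sox4*, *Smad4* and *Smad7* were lowest in other libraries. Without both libraries the log2 fold changes were -0.05 for *Tgfb1*, 0.05 for *Tgfbr1*, 0.02 for *Ski* and -0.26 for *Skil*, each with an adjusted p between 0.53 and 0.97 in edgeR. The part of hepatocyte RNA in these values was not tested.

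Compared per exonic kilobase, which allows genes of different length to be set side by side, the pathway genes ran in the order *Tgfb1*, *Tgfbr1*, *Tgfbr2*, *Skil*, *Ski*, *Smad4*, *Smad2*, *Smad7*, *Smad3* and *Sox4* in both genotypes. *Tgfb1* had a mean of 53.1 ± 11 TMM-CPM per kilobase in WT and 51.9 ± 9.14 in *Lpcat3* KOMac cells (SD, n = 3 each). Its lowest *Lpcat3* KOMac library and the highest for *Tgfbr1* were both at 41.6, so that these neighbours were barely apart. *Tgfbr1* and *Tgfbr2* overlapped in both genotypes, at 35.8 ± 5.21 and 35.5 ± 6.8 TMM-CPM per kilobase in WT (SD, n = 3 each). *Skil* and *Ski* also overlapped in both genotypes, and *Ski* and *Smad4* in WT only. From *Smad4* downward each gene lay above the next in all libraries of both genotypes, ending with *Smad7* at 10.1 ± 0.709, *Smad3* at 2.81 ± 0.27 and *Sox4* at 0.28 ± 0.0389 TMM-CPM per kilobase in WT (SD, n = 3 each).

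**Figure D3:**
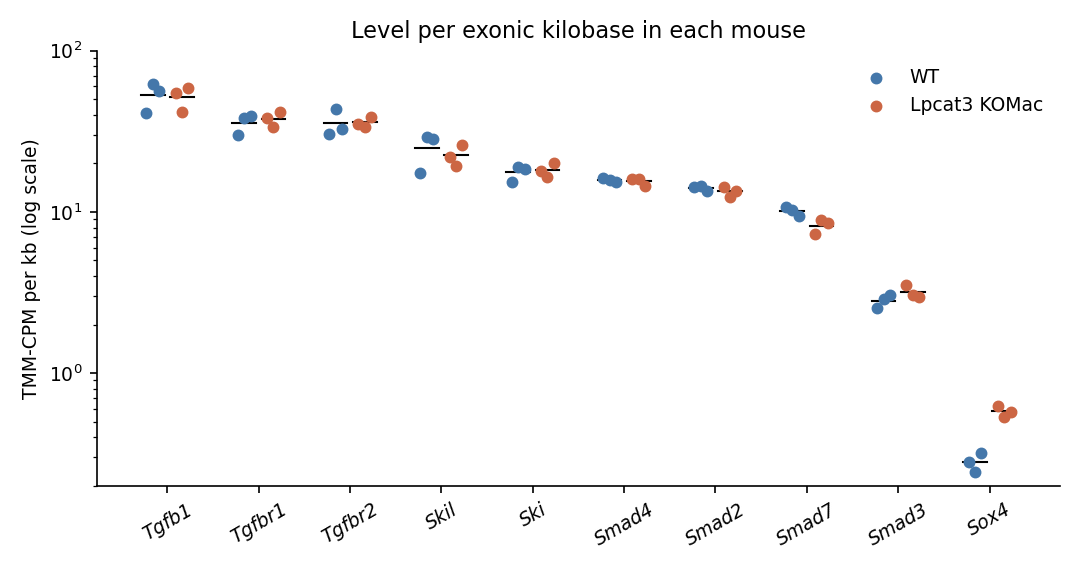
TMM-CPM per exonic kilobase (log axis) of the 10 genes, with 1 point per mouse (WT blue, *Lpcat3* KOMac orange) and a line at each group mean; genes are ordered by their mean over all libraries. The ligand and both receptors lie at 29.8 or higher in every library, *Smad3* between 2.52 and 3.53, and *Sox4* at 0.625 or lower.

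The wider pathway was described with 4 lists, of 48 genes in all, of which 46 passed the filter on low counts. Of these, 0 passed the adjusted threshold of 0.05 in edgeR, DESeq2 or limma-voom. In edgeR, 2 (*Ltbp4* and *Tgfbr3*) lay under an unadjusted 0.05, both higher in *Lpcat3* KOMac cells, and both had groups that did not overlap, 4.35% of the 46 against 7.49% of all genes tested (2.29% higher). Under an unadjusted 0.05 lay 2.64% of all genes (1.07% higher). The median log2 fold change of the 46 was 0.12, with 31 above 0, beside a median of -0.04 and 40.1% above 0 over all genes tested.

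Of 13 genes for other ligands and for the storage and release of latent TGF-beta, 11 were tested, with a median log2 fold change of 0.22. Of the 11, 9 had a positive log2 fold change, where 40.1% of all genes tested did. *Nrros*, which tethers latent TGF-beta to myeloid cells, was the highest per kilobase, at 201 TMM-CPM in WT and 182 TMM-CPM in *Lpcat3* KOMac cells (log2 fold change -0.14, standard error 0.17). *Itgav*, a chain of integrins that release the active ligand, was at 193 and 220 TMM-CPM (log2 fold change 0.18, standard error 0.20). *Ltbp4*, a matrix protein that binds the latent complex, was at 45.5 TMM-CPM in WT and 80.8 in *Lpcat3* KOMac cells without overlap (log2 fold change 0.83, standard error 0.27, unadjusted p = 0.0242 and adjusted p = 1 in edgeR). *Itgb6* and *Itgb8* did not pass the filter, and *Itgb6* had 0 counts in every library.

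All 12 receptor partners and regulators were tested, with a median log2 fold change of 0.09. *Acvrl1*, another type I receptor of the family, was at 127 TMM-CPM in WT and 125 in *Lpcat3* KOMac cells (log2 fold change -0.03, standard error 0.13). *Eng*, the coreceptor endoglin of endothelial cells, was at 84.3 and 140 TMM-CPM with overlapping groups (log2 fold change 0.73, standard error 0.33). *Tgfbr3*, the coreceptor betaglycan, was at 6.36 and 11.8 TMM-CPM without overlap (log2 fold change 0.89, standard error 0.32, unadjusted p = 0.032 and adjusted p = 1 in edgeR). The 6 other Smads and nuclear regulators ranged from -0.36 to 0.07, with groups that overlapped for each (7.49% of all genes tested had groups without overlap). By the mean per kilobase over all libraries the most abundant among them were *Tgif1*, a corepressor (log2 fold change -0.24, standard error 0.23), and *Rnf111*, a ubiquitin ligase for Ski, Skil and Smad7 (0.01, standard error 0.14).

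The TGF-beta target list held 17 genes, all tested. Of these, 0 had groups that did not overlap (7.49% of all genes tested) and 0 lay under an unadjusted 0.05 in edgeR (2.64% of all genes). The log2 fold changes of these genes ran from -0.34 to 0.58 with a median of 0.21. Of the 17, 12 were positive, where 40.1% of all genes tested were. *Col1a1*, *Col1a2* and *Col3a1* (0.26, 0.45 and 0.44) are in this list and also among the stellate cell markers. By the same mean the most abundant targets were the helix-loop-helix regulators *Id3* and *Id2*. *Id3* was at 274 TMM-CPM in WT and 221 in *Lpcat3* KOMac cells (log2 fold change -0.31, standard error 0.14, unadjusted p = 0.07 in edgeR), and *Id2* at 156 and 166 TMM-CPM (0.09, standard error 0.10).

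*Ltbp4*, *Tgfbr3* and *Eng* are genes of endothelial cells among others, so markers of sinusoidal endothelium were set beside them. Of 10 such markers, 8 had a positive log2 fold change, where 40.1% of all genes did, the median was 0.70, and 0 passed the adjusted threshold in edgeR. Under an unadjusted 0.05 lay 2, *Kdr* and *Ptprb*, both higher (1.07% of all genes), and 1, *Egfl7*, had groups without overlap, also higher (2.29% of all genes). *Stab2*, *Cdh5* and *Pecam1* had values of 0.02, -0.22 and -0.24 (the markers named here were picked after their values were seen), and the summed markers overlapped at 1663 to 2194 TMM-CPM in WT and 1774 to 2195 in *Lpcat3* KOMac libraries. *Stab2*, *Cdh5* and *Pecam1* were the most abundant of the 10 markers, with WT means of 447, 855 and 233 TMM-CPM, so the sum rests mostly on them. With the mean of all 10 endothelial markers as a covariate, the log2 fold changes became 0.17 for *Ltbp4*, 0.22 for *Tgfbr3* and 0.0044 for *Eng*. With the same covariate *Sox4* was at 0.93 and *Smad7* at -0.22. Because 8 of the 10 markers were above 0, this covariate can carry part of the genotype difference. The part of endothelial RNA in these values was not tested.

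**Figure D4:**
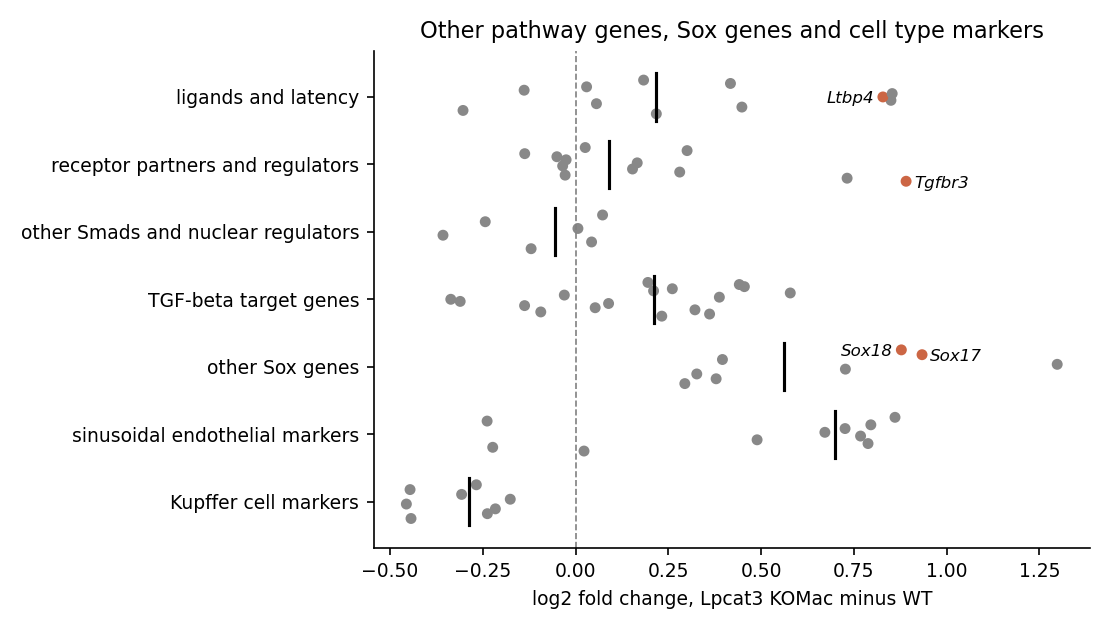
Log2 fold change (*Lpcat3* KOMac minus WT) of every tested gene in the pathway lists, the other *Sox* genes and markers of 2 cell types, with 1 point per gene and a black line at each median; orange points with names are pathway and *Sox* genes whose groups did not overlap. The medians are 0.22, 0.09, -0.06, 0.21 and 0.56 from the ligand list to the *Sox* genes, 0.70 for endothelial markers and -0.29 for Kupffer cell markers.

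Among 9 other *Sox* genes, 8 were tested and all 8 had a positive log2 fold change, with a median of 0.56, where 40.1% of all genes tested were above 0. *Sox18*, *Sox17* and *Sox7* form the SoxF group of endothelial transcription factors. *Sox18* was at 6.2 TMM-CPM in WT and 11.4 in *Lpcat3* KOMac cells (log2 fold change 0.88, standard error 0.28, unadjusted p = 0.0223 in edgeR), and *Sox17* at 2.01 and 3.83 TMM-CPM (0.93, standard error 0.28, unadjusted p = 0.016 in edgeR). Both had an adjusted p = 1. They were the 2 of 8 under an unadjusted 0.05 (1.07% of all genes were higher under it) and the 2 of 8 without overlap (2.29% of all genes were higher without overlap), while *Sox7* was at 2.98 and 4.93 TMM-CPM with overlap (0.73, standard error 0.41). With the endothelial covariate the values were 0.23 for *Sox18*, 0.47 for *Sox17* and 0.00032 for *Sox7*. The part of endothelial RNA in these *Sox* values was not tested either. The SoxC relative *Sox12* was at 1.36 and 1.67 TMM-CPM (log2 fold change 0.29), and *Sox11*, the other SoxC gene, had 0 counts in every library. *Sox12* was named after its values were seen, as the SoxC gene next to *Sox4*.

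*Sox4* is also expressed by bile duct cells and by immature lymphoid cells, so their markers were set beside it. The 5 cholangiocyte markers *Krt19*, *Krt7*, *Epcam*, *Sox9* and *Cftr* together were at 0.320 to 0.700 TMM-CPM in WT and at 0.956 to 1.16 TMM-CPM in *Lpcat3* KOMac libraries, which did not overlap. Each of them on its own had groups that overlapped, 3 passed the filter on low counts, and *Sox9* is also in the *Sox* list. Their sum was below the *Sox4* level in every library. The 8 T and NK cell markers were at 1.8 to 3.67 TMM-CPM in WT and 2.49 to 4.15 in *Lpcat3* KOMac libraries, which overlap. *Cd3d* and *Klrb1c*, picked after their values were seen, were higher in every *Lpcat3* KOMac mouse, but at 0.701 TMM-CPM or lower in every library. Of the 6 markers in this list that were tested, 5 had a positive log2 fold change, where 40.1% of all genes tested did. *Cd3g* was at -0.67 with overlapping groups. The 5 B cell markers (15.7 to 29.2 against 21.1 to 21.8 TMM-CPM) and the 4 plasmacytoid dendritic cell markers (0.818 to 1.29 against 0.947 to 2.04 TMM-CPM) overlapped. The 5 neutrophil markers did not overlap, at 1.96 to 3.06 and 4.24 to 5.78 TMM-CPM, with *Ly6g* and *Ngp* at 0 counts in some libraries. The sums over 5 monocyte markers (94.3 to 159 against 88.1 to 159 TMM-CPM) and 9 stellate cell markers (74.7 to 202 against 147 to 254 TMM-CPM) overlapped. Single markers were higher in every *Lpcat3* KOMac mouse in these lists too (2.29% of all genes tested were higher without overlap). These were *S100a8* of neutrophils (log2 fold change 0.99), *Chil3* of monocytes (1.70) and *Pdgfrb* of stellate cells (0.31). Of the 9 stellate cell markers 8 were above 0, where 40.1% of all genes tested were. The part of these cells in the *Sox4* level was not tested.

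The genes whose log2 TMM-CPM followed that of *Sox4* most closely over the 6 libraries were *Adam23* (Pearson r = 0.999), *Fosl1* (0.985), *Capn11* (0.984), *Dennd2c* (0.974) and *Gm7153* (0.973). These correlations are a description over 6 libraries of both genotypes, the highest among all genes tested, and they carry the genotype difference for which *Sox4* was picked. *Adam23*, a metalloprotease-like adhesion protein, was at 21.1 ± 4.14 TMM-CPM in WT and 53.5 ± 4.48 in *Lpcat3* KOMac cells (SD, n = 3 each). *Fosl1*, a subunit of the AP-1 transcription factor, was at 0.4 ± 0.0808 and 0.726 ± 0.0611 TMM-CPM (SD, n = 3 each). Only the 5 highest positive correlations were listed, and none of the 9 pathway genes was among these 5. The r of the 9 genes with *Sox4* ran from -0.889 for *Smad7* to 0.692 for *Smad3*. These values carry the same genotype difference and are a description as well.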

How the data were processed

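RNA from F4/80-positive liver cells of 6 mice was sequenced as 1 library for each animal. The authors deposited raw read counts for 49315 Ensembl genes per library, without normalization. The submitters' processing notes name Trimmomatic 0.36, STAR 2.5.2b, featureCounts of Subread 1.5.2 and GRCm38. The strand setting and the treatment of multimapping reads are not given in the sources used here. Symbols came from GENCODE M21 (48970 identifiers matched) and promoter sequences from RefSeq (GRCm38.p6).

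The test was edgeR's quasi-likelihood test (edgeR 4.0.16, R 4.3.3) after TMM scaling and the default filter (minimum count 10, 16134 genes kept), with robust dispersions and no covariate beside genotype. Benjamini-Hochberg adjustment ran over all genes tested, with a threshold of 0.05. Standard errors were obtained by dividing the size of the log2 fold change by the root of F, and 95% intervals use the t quantile of the fit. Levels per kilobase use the exonic length in the files. For correlations, log2 CPM had a prior count of 2. At this depth counting error was given for *Sox4*, the lowest of the genes, and was not added elsewhere. Genotype and replicate number came from the sample labels. DESeq2 1.42.0, limma-voom (limma 3.58.1), other scalings and filters, covariates, a length offset, a replicate block and leaving out mice were alternatives. The code of the tests was run on simulated counts. These varied less between libraries than the real counts, so that run does not bear on error rates in these data.

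The genes, lists and tests were chosen with earlier results of these data known. Named are the 10 genes and, in the pathway and *Sox* lists, the 2 highest genes per kilobase and every gene with separate groups or an unadjusted p under 0.05; marker lists are counted, and markers named there were picked after their values were seen. No pair of libraries agreed within sampling noise. A cell type marker is not reported here, and the sum printed for its list leaves it out.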

Additional observations from a re-analysis of the deposited data

How the results depend on the processing

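Under 12 alternatives the log2 fold change of *Sox4* was between 0.93 and 1.14, and that of *Lpcat3* between -1.77 and -1.46. Leaving out each mouse in turn gave 0.95 to 1.15 for *Sox4*, -1.85 to -1.39 for *Lpcat3* and 0 called genes in each fit. All these fits reuse the counts for which *Sox4* was picked, so its ranges describe that value and do not test it. DESeq2 was the only alternative that called genes, 12 in all, *Lpcat3* among them (-1.55, Benjamini-Hochberg adjusted p = 0.00286 in DESeq2), and none of the 9 pathway genes or of the 4 lists.

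Genes near 0 changed sign. With total counts alone, which moved the median of all genes from -0.04 to 0.06, *Tgfb1* was at 0.053, *Smad2* at 0.025, *Smad4* at 0.070 and *Acvrl1* at 0.058. With the hepatocyte covariate *Tgfb1* was at 0.082, *Skil* at 0.0016 and *Acvrl1* at 0.046, and with the endothelial covariate at 0.21, 0.14 and 0.10. *Rnf111* was at -0.00081 without the low-count filter and -0.011 with the length offset. Without both libraries rich in hepatocyte transcripts, a setting chosen after seeing the data, *Tgfbr2* was at -0.037, *Smad2* at 0.00077 and *Rnf111* at -0.021. With each mouse left out the ranges were -0.19 to 0.12 for *Tgfb1*, -0.032 to 0.18 for *Tgfbr1*, -0.079 to 0.18 for *Tgfbr2*, -0.050 to 0.047 for *Smad4*, -0.049 to 0.13 for *Ski*, -0.0037 to 0.33 for *Itgav*, -0.15 to 0.052 for *Acvrl1* and -0.11 to 0.11 for *Rnf111*. Without a change of sign they were wide for *Skil* (-0.36 to -0.031), *Tgif1* (-0.41 to -0.031), *Nrros* (-0.29 to -0.046) and *Sox7* (0.41 to 0.94). The cause was not tested.

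The genes with an unadjusted p-value under 0.05 numbered 426 in edgeR, 138 with the replicate block, 204 with the endothelial covariate, 1500 with the hepatocyte covariate and 1767 without both libraries rich in hepatocyte transcripts. It was 2028 without WT mouse 1, 227 without WT mouse 2, 179 without *Lpcat3* KOMac mouse 1 and 245 without *Lpcat3* KOMac mouse 2. The replicate numbers are only labels and tie no mice of different genotype together, so the samples were not taken as paired. Same-numbered libraries deviated from their genotype means with correlations of -0.30, -0.60 and 0.36 across genes. With 3 libraries per genotype these correlations cannot decide whether the mice were paired. With the replicate block *Sox4* was at 1.05, *Lpcat3* at -1.59 and *Smad7* at -0.30, and 0 genes were called. Nothing in the labels says more of the mice than their genotype and number. The p-values set the genotype difference against the spread within genotypes among these 6 mice.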
